A study of Mus musculus with 12 samples.

Results

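Transcript clusters are the units in which the Clariom D mouse array reports RNA, each a group of probes placed on 1 stretch of the genome. Of the 65535 clusters in the deposited table, 32986 carried no gene symbol in the array annotation. Among these unnamed clusters, 2978 averaged 6 log2 units or more over the 12 arrays (9.03%), and these 2978 are described here. They made up 4.54% of all clusters and 22.8% of the 13061 clusters that reached the same mean. The mean over all arrays chose them, so their level is a description without a test. Differences between conditions were not used as such in choosing them, but a cluster could pass through the groups where it was high.

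The arrays measured RNA of primary oligodendrocyte precursor cells (OPCs) that had been selected from C57Bl/6 mouse brains at postnatal day 2 with an antibody to CD140a. After 48 h of proliferation the cells were switched to differentiation medium with T3, and about 4 h later they received extracellular vesicles (EVs) or medium. The i-EVs came from microglia stimulated with IL-1β, TNF and IFNγ, the IL4-EVs from microglia given IL4, the MSC-EVs from microglia kept together with mesenchymal stem cells and the same inflammatory cytokines, and CTRL cells received medium alone. RNA was taken at 24 h of differentiation, with 3 arrays per group. All 4 groups share the strain, the differentiation medium and T3. CTRL held no EVs of unstimulated microglia, so an effect of receiving any EVs and that of the donor stimulus cannot be told apart in a comparison with CTRL. The labels do not say whether the 3 samples of a group came from separate OPC preparations, and the p-values measure the spread between these samples only.

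A mammalian genome gives rise to many RNAs beside the mRNAs of named genes. Among them are long noncoding RNAs, tRNAs, small nucleolar RNAs and other small RNAs, transcripts of pseudogenes and of repeated elements, and stretches of unspliced precursor RNA. An array of the whole transcriptome holds probes for such stretches whether or not a gene has been named there. A cluster whose sequence occurs in many places of the genome cannot be assigned to a single one of them. In OPCs, which turn into the myelin-forming oligodendrocytes of the central nervous system, noncoding RNAs are known to take part in the control of differentiation. Unnamed here means only that the annotation table gave no symbol. Some clusters carry a name or a class in the study's list of differentially expressed genes, and part of these are given below. A cluster absent from that list has neither here.

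Defining markers of the labelled cells were present. All 10 genes of the OPC and oligodendrocyte lineage (Pdgfra, Olig2, Sox10 and others) averaged 6 log2 units or more, the highest at 19.09. None of the 7 microglial genes, the 5 fibroblast and mesenchymal stem cell genes or the 4 endothelial genes reached 6, and the highest of them was at 4.594. Of 5 astrocyte genes 1 reached 6, and of 5 neuronal genes 2 did. The mean of the lineage list lay at 14.35 to 14.50 in i-EVs, 14.50 to 14.54 in IL4-EVs, 13.64 to 14.54 in MSC-EVs and 14.20 to 14.32 in CTRL. With MSC-EVs 3 genes of this list rose and 0 fell at an adjusted p under 0.05 in limma: Cspg4 by 0.79 (adjusted p = 0.0112), Pdgfra by 0.40 (adjusted p = 0.042) and Ptprz1 by 0.31 (adjusted p = 0.00778). Larger log2 changes of the list did not pass, -1.08 for Bmp4 (adjusted p = 0.465) and -1.03 for Enpp6 (adjusted p = 0.586). Sox10 (-0.22) and Gpr17 (-0.16) were also lower, and Olig1, Olig2 and Vcan higher, none at an adjusted p under 0.05. In the other lists the neuronal gene Snap25 (-0.44, adjusted p = 0.0135) and the fibroblast gene Dcn (-0.29, adjusted p = 0.0185) fell with MSC-EVs. With IL4-EVs Ptprz1 rose by 0.31 and Vcan by 0.71 (limma adjusted p = 0.0149 and 0.0488). Snap25 (-0.56, adjusted p = 0.00748) and the astrocyte gene Slc1a3 (-0.29, adjusted p = 0.0189) fell with IL4-EVs. No listed gene passed with i-EVs. The part of these genes in the results below was not tested. The replicates i-EVs 2 and MSC-EVs 3 stood apart from their groups, with array weights of 0.442 and 0.435 against 0.907 to 1.48 in the other arrays, and values without them are given below.

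The unnamed clusters ranged in mean level from 6.001 to 19.92 log2 units, with a median of 8.354. The 10083 clusters with a symbol and a mean of at least 6 had a median of 8.745, and all 65535 clusters one of 3.55. Just inside the threshold were TC1200000079, TC0200000243 and TC0100002100, each with a mean of 6.001. Just outside were TC0400003907 at 5.999, and TC0900001596 and TC0X00000762, both at 5.997. In 2793 unnamed clusters (93.8%) all 4 group means were at least 6. In the other 185 at least 1 group mean was lower, among them 119 with MSC-EVs at or over 6 and CTRL under it, and 42 the other way round.

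Across conditions the median over the unnamed clusters was higher with IL4-EVs and MSC-EVs than in CTRL, while with i-EVs it was close to CTRL. The median over the 2978 clusters was 8.339, 8.396 and 8.346 log2 units in the i-EVs arrays, 8.405, 8.399 and 8.416 in the IL4-EVs arrays, 8.542, 8.434 and 8.681 in the MSC-EVs arrays and 8.260, 8.294 and 8.329 in the CTRL arrays. Every EV array was above every CTRL array, and MSC-EVs replicate 3 was the highest. For i-EVs the gap to CTRL was narrow, and the median log2 change of the clusters, 0.0253, was near that of all clusters, 0.0193, and was -0.0121 after centring each array on its median. The clusters with a symbol ran the other way. Their median was 8.782, 8.651 and 8.778 in i-EVs, 8.694, 8.709 and 8.720 in IL4-EVs, 8.718, 8.709 and 8.734 in MSC-EVs and 8.871, 8.837 and 8.822 in CTRL. There every EV array was below every CTRL array.

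**Figure D1:**
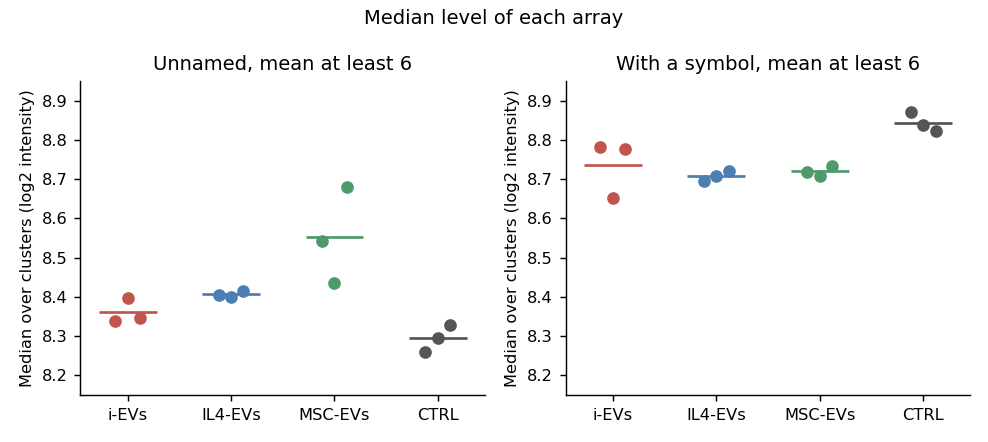
Median log2 intensity over the 2978 unnamed clusters with a mean of at least 6 (left) and over the 10083 clusters with a symbol and a mean of at least 6 (right), 1 point per array, with the mean of each group as a line. On the left CTRL is the lowest group, with arrays from 8.260 to 8.329, and on the right it is the highest, from 8.822 to 8.871.

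Differentially expressed clusters (DEGs) were those with a 1.5-fold or larger change and an adjusted p under 0.05 in limma, adjusted by Benjamini-Hochberg over all 65535 clusters. With MSC-EVs, 1096 of the 2978 unnamed clusters were DEGs (36.8%), 824 higher and 272 lower than in CTRL. Over all clusters the share was 5.73% (3.12% higher, 2.62% lower), and among clusters with a symbol and a mean of at least 6 it was 15.4%, with 317 higher and 1238 lower. The unnamed clusters thus held 40.4% of all rises with MSC-EVs and 15.9% of all falls. Their median log2 change was 0.127, against -0.142 for the clusters with a symbol and -0.00799 for all clusters. Without MSC-EVs replicate 3 there were 654 rises and 246 falls, with a median of 0.134. The lean toward rises was not particular to these clusters. Of the 30008 unnamed clusters with a mean under 6, 852 rose (2.84%) and 58 fell (0.193%) with MSC-EVs. Rises made up 93.6% of the calls there, against 75.2% at a mean of at least 6.

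With IL4-EVs, 302 unnamed clusters were DEGs (10.1%, against 1.8% of all clusters), 198 higher and 104 lower than in CTRL. Of all clusters 0.537% were higher and 1.26% lower. Clusters with a symbol and a mean of at least 6 had 118 rises and 690 falls in the same comparison. The unnamed clusters held 56.2% of all rises and 12.6% of all falls. Their median log2 change was 0.131, against -0.127 for the clusters with a symbol and 0.000886 for all clusters. The count of rises depended on single arrays. It was 56 when CTRL replicate 1 was left out and 80 when CTRL replicate 2 was. Leaving out IL4-EVs replicates 1, 2 or 3 gave 66, 78 or 73. It was 299 when MSC-EVs replicate 3 was left out, which enters through the shared estimate of the spread. Falls numbered 62 when CTRL replicate 1 was dropped, and 57 or 62 when IL4-EVs replicate 2 or 3 was. After normalizing the arrays again by quantiles there were 295 rises and 45 falls, and after cyclic loess 315 and 41, so that rises made up 86.8% and 88.5% of the calls, against 65.6% in the deposited values. Of the unnamed clusters with a mean under 6, 30 rose (0.1%) and 5 fell (0.0167%) with IL4-EVs in the deposited values.

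With i-EVs, 15 unnamed clusters were DEGs (0.504%, against 0.154% of all clusters), 4 higher and 11 lower than in CTRL. Of all clusters 0.032% were higher and 0.122% lower. At an unadjusted p under 0.05 there were 804 (27.0%), against 13.3% of all clusters and 39.8% of those with a symbol and a mean of at least 6. The median log2 change was 0.0253, against -0.0979 for the clusters with a symbol and 0.0193 for all clusters. Neither the number nor the direction of these calls was stable. Quantile normalization gave 11 rises and 5 falls, cyclic loess 20 and 7, and centring each array on its median 2 and 6, with medians of 0.104, 0.116 and -0.0121. No call in either direction was left without any 1 of the 3 CTRL arrays, i-EVs replicate 2 or 3, or any 1 of the 3 IL4-EVs arrays. Leaving out i-EVs replicate 1 gave 52 rises and 89 falls. Leaving out MSC-EVs replicate 3 gave 24 and 34, MSC-EVs replicate 1 gave 1 and 5, and MSC-EVs replicate 2 gave 6 of each.

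Without a threshold on the fold, 990 unnamed clusters were higher and 427 lower with MSC-EVs at an adjusted p under 0.05, 296 higher and 208 lower with IL4-EVs, and 11 higher and 20 lower with i-EVs. Over all clusters this rule called 3843 higher (5.86%) and 4424 lower (6.75%) with MSC-EVs, 1054 (1.61%) and 2708 (4.13%) in the IL4-EVs comparison, and 64 (0.0977%) and 248 (0.378%) in the i-EVs comparison.

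The 824 clusters that rose with MSC-EVs had a median log2 change of 0.298 under i-EVs, 0.588 under IL4-EVs and 0.99 under MSC-EVs, all against the same 3 CTRL arrays. The 272 that fell had medians of -0.421, -0.568 and -0.791. Both lists were chosen by their MSC-EVs change, so that the last value of each is set by the choice. The i-EVs and IL4-EVs medians subtract the same CTRL arrays that entered the choice. They are therefore pushed the same way by it and are no independent sign of a shared response. Of the 824, every group mean was at least 6 in 762, and of the 272 in 263. Among the 824 rising clusters, MSC-EVs replicate 3 was the highest of the 12 arrays in 611, MSC-EVs replicate 1 in 108 and MSC-EVs replicate 2 in 46, and CTRL replicate 1 was the lowest in 516. The clusters varied more within groups than those with a symbol. The median SD over 3 arrays was 0.232 in MSC-EVs, 0.177 in i-EVs, 0.116 in IL4-EVs and 0.130 in CTRL, against 0.128, 0.0986, 0.0659 and 0.0757 for the clusters with a symbol and a mean of at least 6.

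Between EV types, MSC-EVs differed from i-EVs in 215 unnamed clusters (7.22%, against 0.8% of all clusters), 188 higher and 27 lower with MSC-EVs. Of all clusters 0.711% were higher and 0.0885% lower. At an adjusted p under 0.05 regardless of fold, 203 unnamed clusters were higher and 49 lower, against 1.07% and 0.385% of all clusters. This count rested on single arrays. Leaving out i-EVs replicates 1, 2 or 3 gave 1, 26 or 21 rises, and leaving out MSC-EVs replicates 1, 2 or 3 gave 72, 415 or 29. There were between 78 and 94 rises without CTRL replicate 2 or 3 or any 1 of the IL4-EVs arrays. The falls numbered 0, 7 and 8 without i-EVs replicates 1, 2 and 3, 61 without MSC-EVs replicate 2 and 2 without MSC-EVs replicate 3. No unnamed cluster was a DEG between IL4-EVs and i-EVs or between MSC-EVs and IL4-EVs, against 0.0% and 0.00153% of all clusters in limma. At an unadjusted p under 0.05 there were 506 between IL4-EVs and i-EVs (17%, against 7.56% of all clusters) and 721 between MSC-EVs and IL4-EVs (24.2%, against 8.91%). Without MSC-EVs replicate 2 the comparison of MSC-EVs with IL4-EVs gave 62 rises and 3 falls.

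By level, 42.7% of the unnamed clusters rose with MSC-EVs at 7 to 8 log2 units, a share that falls to 27.9% when clusters with identical values are counted once. In that band 249 of 583 unnamed clusters rose and 31 fell (5.32%), with a median log2 change of 0.506. In clusters with a symbol of the same level, 48 of 1742 rose (2.76%) and 112 fell (6.43%), with a median of -0.105. At 6 to 7 units 23.8% of the unnamed clusters rose and 4.10% fell. At 8 to 10 units 24.9% rose and 9.84% fell, and at 10 units and over 23.7% rose and 14.4% fell. In every one of these bands the unnamed clusters rose more often than the clusters with a symbol, of which 1.11%, 3.26% and 4.51% rose at 6 to 7, 8 to 10 and at least 10 units.

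**Figure D2:**
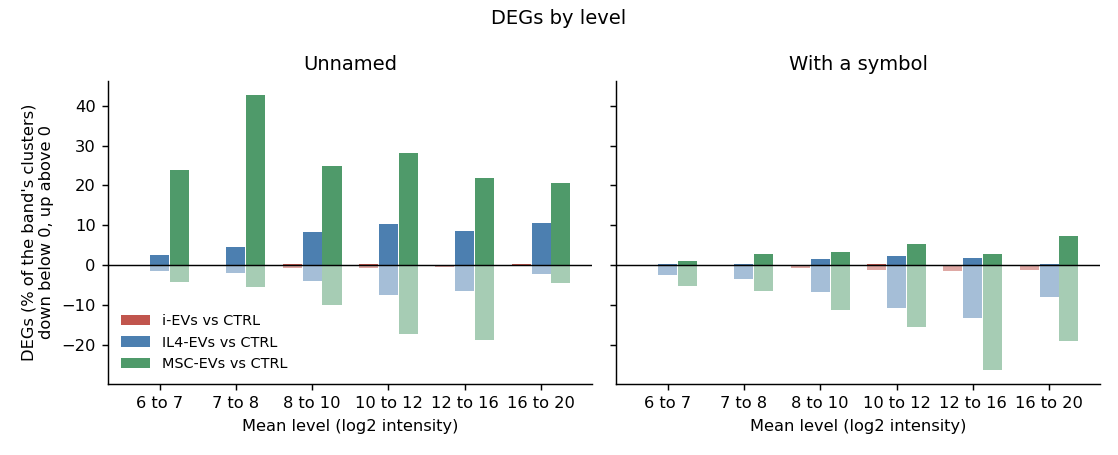
DEGs as a share of the clusters in each band of mean level, rises above 0 and falls below it (paler), for unnamed clusters (left) and clusters with a symbol (right), with 1 bar per comparison with CTRL. At 7 to 8 log2 units 42.7% of the unnamed clusters rose with MSC-EVs, against 2.76% of the clusters with a symbol.

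A part of these counts repeated 1 measurement. In 61 sets, 429 of the 2978 unnamed clusters (14.4%) had deposited values identical to those of another on all 12 arrays, and the other 2549 stood alone, which leaves 2610 distinct profiles. Among clusters with a symbol and a mean of at least 6, 3.29% had such a double. Of the 61 sets 43 spread over more than 1 chromosome. The clusters of a set are no replicates of each other. Of the 429 clusters 64.1% were rises with MSC-EVs, against 21.5% of those that stood alone. Counted once per profile, the 824 rises with MSC-EVs came to 574, the 272 falls to 271, and the 198 rises with IL4-EVs to 164. The median log2 change per profile was 0.0478 in the MSC-EVs comparison, 0.0814 in that of IL4-EVs and 0.00618 in that of i-EVs. At 7 to 8 log2 units the 583 clusters held 426 profiles, of which 119 rose with MSC-EVs (27.9%). At 6 to 7, 8 to 10 and 10 to 12 units 18.6%, 24.2% and 29.3% of the profiles rose. At 12 to 16 and 16 to 20 units 20.2% and 6.28% did. In the highest of these bands 57 of 275 clusters rose, in only 13 of 207 profiles.

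The largest set held 62 clusters on 17 chromosomes, the first of them TC0100000118. Its value was 6.966, 7.0 and 7.376 log2 units in i-EVs, 7.129, 7.764 and 7.355 in IL4-EVs, 7.573, 7.850 and 8.459 in MSC-EVs and 6.591, 6.874 and 7.019 in CTRL. The MSC-EVs arrays lay above all CTRL arrays, and IL4-EVs did as well, with overlap between IL4-EVs and i-EVs. The log2 change with MSC-EVs was 1.13 (SE 0.224, limma adjusted p = 0.00635), and with IL4-EVs 0.59 (adjusted p = 0.186). Sets of 35, 30 and 20 clusters behaved in a like manner, with log2 changes of 0.90, 1.26 and 1.34 with MSC-EVs and adjusted p of 0.0139, 0.00914 and 0.00464 in limma. In these sets MSC-EVs replicate 3 was the highest array. No class was found in the study's list of differentially expressed genes for the sets of 62, 35 and 30 clusters.

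A set of 26 clusters on 12 chromosomes, the first of them TC0100000722, was far brighter, with a mean of 16.89. Those of its clusters with a class in the study's list of differentially expressed genes were precursor microRNA, the hairpin RNA from which a mature microRNA is cut. It measured 16.71, 16.72 and 16.68 log2 units in i-EVs, 16.99, 17 and 17.08 in IL4-EVs, 17.37, 17.04 and 17.88 in MSC-EVs and 16.37, 16.43 and 16.42 in CTRL. None of the EV arrays overlapped CTRL. The log2 changes were 0.30 with i-EVs (adjusted p = 0.449), 0.62 with IL4-EVs (adjusted p = 0.0383) and 1.03 with MSC-EVs (adjusted p = 0.00157, limma), and MSC-EVs exceeded i-EVs by 0.73 (adjusted p = 0.046). A set of 7 clusters of the same class, with a mean of 14.81, changed by 0.21, 0.56 and 1.11 (adjusted p = 0.64, 0.0585 and 0.00107).

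**Figure D3:**
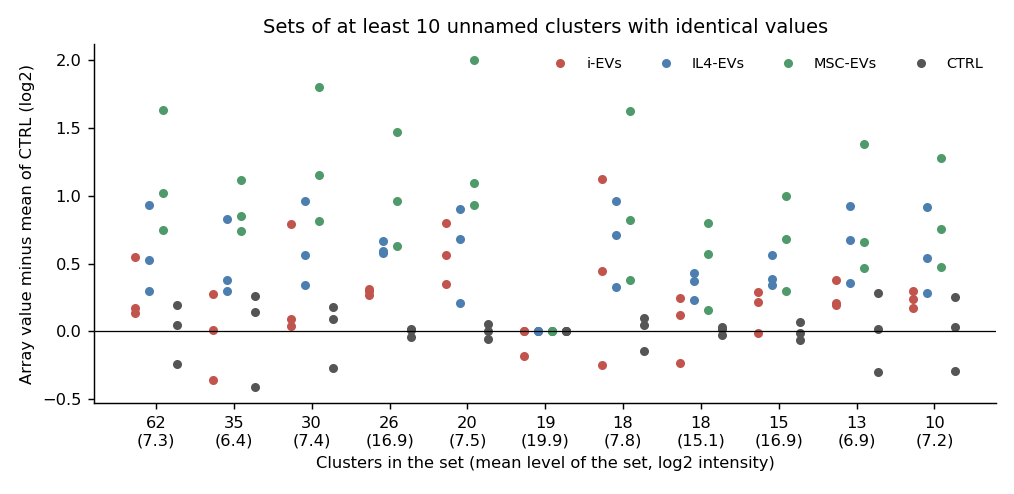
The 11 sets of at least 10 unnamed clusters with identical values, each drawn once, as the value of every array minus the mean of CTRL on the log2 scale; below each set stand its number of clusters and its mean level. In 10 of the 11 sets the highest array is MSC-EVs replicate 3, and the set at 19.92 stays at 0 but for i-EVs replicate 2.

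The brightest unnamed clusters gave no comparison. The highest mean was 19.92, shared by 19 unnamed clusters and 17 with a symbol in 1 set of identical values. TC0100002077, TC0100002078, TC0200002613, TC0200002916 and TC0200003422 come first among them in the order of the table. They measured 19.93 on every array except i-EVs replicate 2, at 19.75, which are the highest values those arrays hold. In all, 80 unnamed clusters were at or over 19 log2 units on all 12 arrays, their largest log2 change against CTRL was 0.345 in size, and none was a DEG. At the upper end of an array's range a difference may not show.

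By chromosome, as read from the 2 characters after TC in the cluster name, each chromosome held between 79 (chromosome 19) and 234 (chromosome 2) unnamed clusters with a mean of at least 6, apart from Y with 10 and M with 19. The table ends at TC1900001700 with 65535 clusters, and what may follow is not analysed here. As a share of all clusters of a chromosome they ranged from 3.69% on chromosome 5 to 5.65% on chromosome 10, with 1.79% on Y. Their median level lay between 7.848 on chromosome 12 and 8.98 on chromosome 2 among chromosomes 1 to 19 and X, and was 7.618 on Y and 11.16 on M. With MSC-EVs, rises outnumbered falls on all 20 of chromosomes 1 to 19 and X. Rises made up 19% of the clusters on chromosome 11, where 17.3% fell, and 39.4% on chromosome 14, where 9.17% fell. Over all clusters, 2.08% rose on chromosome 11 and 3.43% on chromosome 14. On X 35.6% rose and 12.2% fell, against 3.01% and 5.49% of all its clusters. On Y 6 of 10 rose and none fell, against 1.08% and 0.0% of all its clusters, where the 10 clusters held 7 profiles. With IL4-EVs between 1.68% (chromosome 11) and 12.3% (chromosome 18) rose. No difference between chromosomes was tested.

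**Figure D4:**
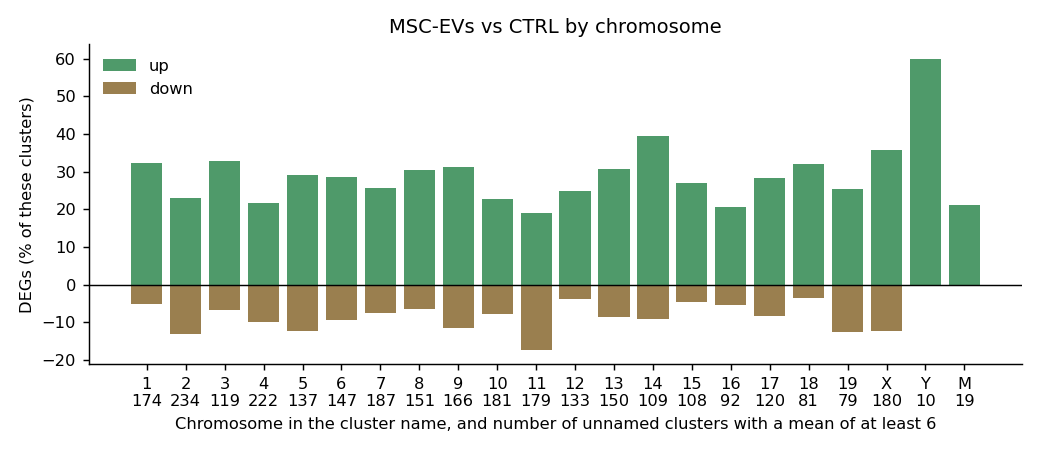
Rises (above 0) and falls (below 0) with MSC-EVs against CTRL, as a percentage of the unnamed clusters with a mean of at least 6 on each chromosome, whose number stands under the chromosome. Rises reach from 19% on chromosome 11 to 39.4% on chromosome 14, and Y with 10 and M with 19 clusters rest on few.

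The mitochondrial chromosome stood out in how many of its clusters were members. The mitochondrial genome encodes subunits of the respiratory chain and the rRNAs and tRNAs needed to translate them, and its transcripts are abundant in most cells. Of its 30 clusters 19 were unnamed and had a mean of at least 6 (63.3%), from 6.449 to 19.23 log2 units. The tRNA for glutamate, mt-Te (TC0M00000028), measured 19.47, 19.40 and 19.44 in i-EVs, 19.32, 19.43 and 19.43 in IL4-EVs, 19.45, 19.65 and 19.35 in MSC-EVs and 18.60, 18.60 and 18.66 in CTRL. All EV arrays lay above CTRL, near the upper end of the range. The log2 changes were 0.82 with i-EVs (adjusted p = 0.0186), 0.78 with IL4-EVs (adjusted p = 0.0013) and 0.86 with MSC-EVs (adjusted p = 0.000233, limma, SE 0.0771 each).

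For 3 other mitochondrial tRNAs, MSC-EVs and i-EVs differed. The tRNA for valine, mt-Tv (TC0M00000003), measured 12.90, 12.81 and 12.81 in i-EVs, 12.93, 12.67 and 12.83 in IL4-EVs, 13.33, 13.44 and 13.63 in MSC-EVs and 12.54, 12.09 and 12.41 in CTRL. Its log2 change was 1.12 with MSC-EVs (adjusted p = 0.000409), and MSC-EVs exceeded i-EVs by 0.63 (adjusted p = 0.0305, limma). The serine tRNA mt-Ts1 (TC0M00000025) measured 10.08, 10.22 and 9.820 in i-EVs, 9.924, 10.03 and 9.818 in IL4-EVs, 9.495, 9.554 and 9.454 in MSC-EVs and 9.252, 9.467 and 9.577 in CTRL. It rose by 0.61 with i-EVs (adjusted p = 0.0433) and by 0.49 with IL4-EVs (adjusted p = 0.0221), while MSC-EVs was lower than i-EVs by 0.54 on the log2 scale (adjusted p = 0.0416). The histidine tRNA mt-Th (TC0M00000014) rose by 0.72 with IL4-EVs and by 0.77 with MSC-EVs (adjusted p = 0.00622 and 0.00215). The glycine tRNA mt-Tg (TC0M00000010), at 18.47, 18 and 18.13 in MSC-EVs and 18.78, 18.75 and 18.75 in CTRL, fell by 0.56 on the log2 scale (adjusted p = 0.00354), short of a 1.5-fold change, and MSC-EVs was lower than i-EVs by 0.54 (adjusted p = 0.0286). Over the 19 clusters, 6 were higher and 1 lower with MSC-EVs at an adjusted p under 0.05, 4 higher and 0 lower with IL4-EVs, and 2 higher and 0 lower with i-EVs. Over all clusters the shares were 5.86% and 6.75%, 1.61% and 4.13%, and 0.0977% and 0.378%. As DEGs, 4 of the 19 rose with MSC-EVs (21.1%), against 27.7% of the 2978 unnamed clusters. With IL4-EVs and with i-EVs 2 rose (10.5% each), against 6.65% and 0.134% of the 2978. The clusters mt-Tv, mt-Th and mt-Tg were picked after their values were seen.

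Among single clusters the largest rise with IL4-EVs and with MSC-EVs was that of TC1000000999, a noncoding transcript of chromosome 10 in the study's list. It measured 7.389, 8.046 and 6.791 log2 units in i-EVs, 8.687, 7.941 and 8.850 in IL4-EVs, 8.649, 8.703 and 9.329 in MSC-EVs and 6.350, 6.505 and 6.540 in CTRL. All EV arrays were above CTRL, and i-EVs spread the most. The log2 changes were 0.94 with i-EVs (adjusted p = 0.182), 2.03 with IL4-EVs (adjusted p = 0.00343) and 2.43 with MSC-EVs (adjusted p = 0.000703, limma, SE 0.306 each). Washc4, a subunit of the endosomal WASH complex and the next placed gene 11 numbers on, changed by 0.14 with MSC-EVs (adjusted p = 0.419).

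The next 3 rises with MSC-EVs stood beside genes whose own changes were smaller. TC0400001983 measured 9.523, 8.647 and 10.78 in MSC-EVs against 6.936, 7.448 and 7.416 in CTRL, a log2 change of 2.38 (SE 0.431, adjusted p = 0.00408). Rere, a nuclear receptor coregulator 8 numbers before it on chromosome 4, rose by 0.65 (adjusted p = 0.000767), and the ribosomal protein pseudogene Rps15a-ps3, 6 numbers after it, fell by 1.33 on the log2 scale (adjusted p = 0.000335). TC1100000349, annotated C530030P08Rik, measured 10.18, 9.548 and 11.30 in MSC-EVs against 7.904, 8.086 and 8.231 in CTRL, a log2 change of 2.27 (adjusted p = 0.00157). Fbxw11, which brings substrates to an SCF ubiquitin ligase, lay 5 numbers before it and changed by -0.13 (adjusted p = 0.399), and Gm12115, 5 numbers after it, fell by 0.74 on the log2 scale (adjusted p = 0.00276). TC1100001005, between the Rab5 effector Ankfy1 and Zzef1, measured 11.7, 10.78 and 12.91 in MSC-EVs against 9.512, 9.624 and 9.506 in CTRL, a log2 change of 2.25 (adjusted p = 0.00361). Ankfy1 changed by 0.16 (adjusted p = 0.203) and Zzef1 rose by 0.51 (adjusted p = 0.00137). In all 3 clusters MSC-EVs replicate 3 was the highest array, and without it each was still called.

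The other large rises with IL4-EVs were in small and noncoding RNAs. TC0500000412 on chromosome 5 measured 10.47, 10.59 and 10.67 in IL4-EVs against 8.703, 8.917 and 9.468 in CTRL, a log2 change of 1.55 (SE 0.303, adjusted p = 0.0119), and 2.09 with MSC-EVs (adjusted p = 0.00135). The IL4-EVs call was lost without CTRL replicate 1. TC1100002700, annotated as the small RNA Gm25291 next to the COPII coat gene Sec24a, measured 15.51, 15.41 and 14.77 in IL4-EVs against 13.41, 14.04 and 14.19 in CTRL, a log2 change of 1.35 (adjusted p = 0.0274). Its changes with MSC-EVs and i-EVs were 1.82 and 1.45 (adjusted p = 0.00321 and 0.0625). The IL4-EVs call was lost without CTRL replicate 1 or 2 or IL4-EVs replicate 1 or 2. TC0500001564, between the replication factor gene Rfc2 and Gm10369, measured 10.71, 10.15 and 11.13 in IL4-EVs against 8.123, 9.383 and 9.377 in CTRL. Its log2 change of 1.70 (SE 0.449) was close to the threshold, with an adjusted p of 0.0494, and the CTRL arrays spread widely. The call was lost without any 1 of the CTRL, IL4-EVs or MSC-EVs arrays except MSC-EVs replicate 3, and also when i-EVs replicate 3 was dropped.

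Rises with i-EVs were few, and the clusters concerned rose with other EVs as well, except that mt-Ts1 did not pass the test with MSC-EVs (log2 change 0.07, adjusted p = 0.808, limma). TC0300000006, annotated as the precursor microRNA Gm23237, measured 9.530, 10 and 9.406 in i-EVs, 9.689, 9.347 and 9.487 in IL4-EVs, 9.864, 9.768 and 9.908 in MSC-EVs and 8.738, 8.785 and 8.890 in CTRL. Its log2 changes were 0.84, 0.70 and 1.04 (adjusted p = 0.0375, 0.0117 and 0.000855, limma). TC0900002148, a noncoding transcript of chromosome 9, measured 9.799, 9.894 and 10.10 in i-EVs, 10.19, 10.37 and 10.20 in IL4-EVs, 10.49, 10.47 and 10.66 in MSC-EVs and 9.136, 9.359 and 9.439 in CTRL. The groups did not overlap, and the log2 changes were 0.62, 0.94 and 1.23 (adjusted p = 0.039, 0.0013 and 0.000214). MSC-EVs exceeded i-EVs by 0.61 (adjusted p = 0.0261). The remaining rises with i-EVs were those of mt-Te and mt-Ts1.

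On chromosome 17, the 6 clusters TC1700001430 to TC1700001435 were the longest run of neighbouring numbers that were all DEGs in the same direction of a comparison with CTRL. The gene before them is Qk, which encodes quaking, an RNA-binding protein that acts on the splicing and stability of myelin mRNAs. All 6 were classed as noncoding by the study. The CTRL mean was 5.844 in TC1700001430, and in TC1700001434 the means were 5.693 in CTRL and 5.821 in i-EVs. These 2 clusters reached a mean of 6 through the groups where they were higher, and the length of the run depends on them. TC1700001430 measured 6.624, 6.603 and 6.157 log2 units in i-EVs, 6.523, 6.602 and 6.773 in IL4-EVs, 7.497, 7.263 and 7.878 in MSC-EVs and 5.896, 5.795 and 5.841 in CTRL. All EV arrays were above CTRL, and MSC-EVs above all the others. The log2 change with MSC-EVs was 1.70 (SE 0.155, adjusted p = 0.000246) and with IL4-EVs 0.79 (adjusted p = 0.0121, limma). TC1700001435, the brightest, measured 8.305, 8.117 and 8.843 in i-EVs, 8.798, 8.859 and 9.100 in IL4-EVs, 9.476, 9.396 and 9.472 in MSC-EVs and 7.799, 8.245 and 7.717 in CTRL, with log2 changes of 0.50, 1.00 and 1.53 (adjusted p = 0.224, 0.00744 and 0.000537). The other 4 rose with MSC-EVs by 1.28, 1.42, 1.09 and 1.36.

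Qk itself did not pass the test. It measured 16.68, 16.50 and 16.68 in i-EVs, 16.69, 16.77 and 16.71 in IL4-EVs, 16.77, 16.68 and 16.68 in MSC-EVs and 16.55, 16.55 and 16.50 in CTRL, with log2 changes of 0.08, 0.19 and 0.17 (adjusted p = 0.68, 0.15 and 0.127). The gene after the run, D17Ertd648e, rose by 0.48 with MSC-EVs (adjusted p = 0.0083) at a mean level of 4.048. MSC-EVs exceeded i-EVs by 0.76 to 1.23 log2 units in the 6 clusters, with limma adjusted p from 0.0193 to 0.0319. The 6 clusters lie next to each other and are not independent of each other as transcripts.

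**Figure D5:**
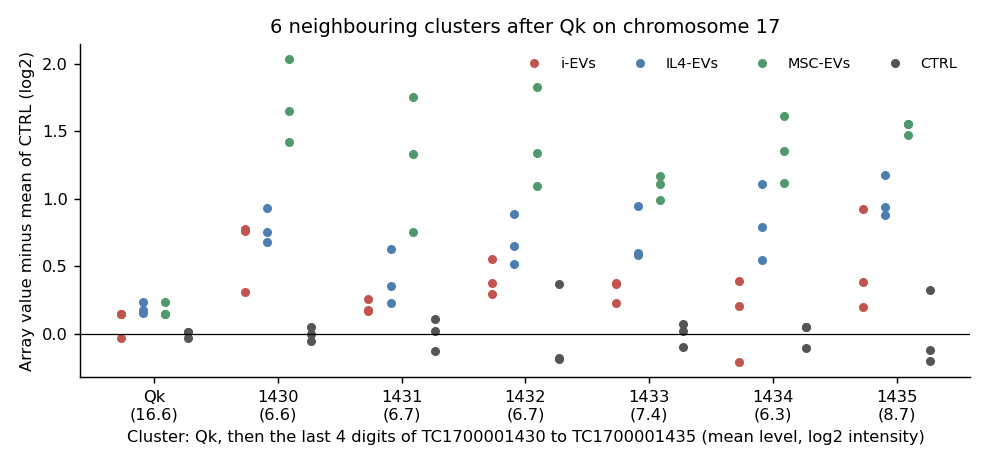
Qk and the 6 clusters that follow it in number on chromosome 17, as the value of every array minus the mean of CTRL on the log2 scale, with the mean level below each. The MSC-EVs arrays lie above all CTRL arrays in each of the 6 clusters, while Qk at 16.65 changed by 0.17.

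Falls were led by clusters of the histone region of chromosome 13 with IL4-EVs. TC1300000180 and TC1300001566 hold identical values and were placed beside the histone genes H2bc22 and H2ac24. They measured 14.77, 14.78 and 14.39 in i-EVs, 13.75, 13.83 and 13.31 in IL4-EVs, 12.97, 13.72 and 14.60 in MSC-EVs and 14.79, 14.98 and 15.21 in CTRL. The log2 change was -1.36 with IL4-EVs (SE 0.316, adjusted p = 0.0272) and -1.23 with MSC-EVs (adjusted p = 0.0246, limma), where replicate 3 came close to CTRL. TC1300001639, between H2bc9 and the iron regulator Hfe, had nearly the same values, with log2 changes of -1.36 with IL4-EVs and -1.2 with MSC-EVs (adjusted p = 0.0273 and 0.0271). The study classed TC1300001639 as coding, and TC1300000180 and TC1300001566 as noncoding. The IL4-EVs calls of these 3 clusters were lost without any 1 of the CTRL or IL4-EVs arrays. H2bc22 and H2bc9 changed by -0.52 and -0.54 with IL4-EVs (adjusted p = 0.211 and 0.166). TC0800003090 (LOC100861897) on chromosome 8 measured 11.30, 11.37 and 11.06 in i-EVs, 10.52, 10.58 and 10.23 in IL4-EVs, 10.03, 10.43 and 9.839 in MSC-EVs and 11.26, 11.58 and 11.98 in CTRL. Its log2 changes were -1.17 with IL4-EVs and -1.51 with MSC-EVs (adjusted p = 0.00466 and 0.000684), and its i-EVs arrays overlapped CTRL.

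With MSC-EVs the largest falls besides TC0800003090 were those of TC1000001119, TC0600001818 and TC0400000079. TC1000001119, near the kinase gene Cdk17, measured 8.877, 7.936 and 8.525 in MSC-EVs against 10.25, 9.774 and 9.931 in CTRL, a log2 change of -1.54 (SE 0.347, adjusted p = 0.0126). Without CTRL replicate 1 its adjusted p was 0.0581. TC0600001818, annotated Gm27018 and lying between Gm8649 and Gm8652, measured 11.79, 11.32 and 11.26 in MSC-EVs against 13.05, 12.88 and 13.04 in CTRL, a log2 change of -1.53 (adjusted p = 0.00189). Gm8649 fell by 1.15 on the log2 scale (adjusted p = 0.00236). TC0400000079 on chromosome 4 measured 12.85, 12.06 and 12.43 in MSC-EVs against 14.13, 13.71 and 13.89 in CTRL, a log2 change of -1.46 (adjusted p = 0.00727). Neither TC1000001119 nor TC0400000079 had a name or class in the study's list of differentially expressed genes.

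The 4 largest falls with i-EVs were also lower with the other EVs. TC1100000143, the pseudogene Gm12005, measured 11.33, 10.71 and 11.13 in i-EVs, 11.24, 11 and 11.30 in IL4-EVs, 10.97, 10.76 and 10.82 in MSC-EVs and 12.23, 11.88 and 11.88 in CTRL, with log2 changes of -0.94, -0.82 and -1.15 (adjusted p = 0.0372, 0.00951 and 0.000903). TC0400002687 (Gm12513) measured 12.19, 11.82 and 11.93 in i-EVs, 12.03, 12.02 and 11.98 in IL4-EVs, 12.10, 11.72 and 11.87 in MSC-EVs and 12.80, 12.72 and 12.81 in CTRL, with changes of -0.80, -0.77 and -0.88 (adjusted p = 0.034, 0.00247 and 0.000585). TC0100002972 (Gm15393), between Insig2, a regulator of cholesterol synthesis, and the serotonin receptor gene Htr5b, changed by -0.85, -0.78 and -1.05, and TC1700001184 (Gm19399), between Crim1 and Vit, by -0.82, -0.70 and -1.30. Their adjusted p with i-EVs was 0.0427 each. The study classed TC1700001184 as coding. In all 4 clusters the EV arrays lay below every CTRL array.

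Between MSC-EVs and i-EVs the largest difference was that of TC0400001983, at 9.523, 8.647 and 10.78 in MSC-EVs against 7.899, 7.611 and 6.861 in i-EVs, a log2 difference of 2.19 (adjusted p = 0.0369). TC0100000997 and TC0500000573, which hold identical values, measured 7.817, 8.063 and 8.052 in MSC-EVs against 6.662, 4.869 and 5.902 in i-EVs, a difference of 2.17 (adjusted p = 0.0426, limma). Among the 12 arrays i-EVs replicate 2 was the lowest in this pair. CTRL, at 6.819, 5.807 and 7.327, overlapped i-EVs. These differences were not called without any 1 of the i-EVs or IL4-EVs arrays. That of TC0400001983 was also lost without MSC-EVs replicate 1 or 3, or CTRL replicate 2 or 3. That of the pair was also lost without any 1 of the MSC-EVs arrays or CTRL replicate 1.

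A stretch of chromosome 10 repeated its values within itself. Between Il22, which encodes the cytokine interleukin-22, and Ifng, the gene of interferon gamma, the 71 clusters numbered 1381 to 1451 held no gene symbol, and 35 of them had a mean of at least 6, in only 14 distinct profiles. The 27 clusters numbered 2951 to 2977, between Rap1b and Iltifb, held 15 more, in 12 profiles. Of the 35, 32 were below CTRL with MSC-EVs and 32 with IL4-EVs, with medians of -0.485 and -0.362. These counts and medians include each of the 14 profiles as often as it was copied. The profiles of TC1000001381, TC1000001385 and TC1000001386 were above CTRL in both comparisons. Over all clusters, 47.5% were higher than CTRL with MSC-EVs and 50.4% with IL4-EVs. None of the 35 passed an adjusted p of 0.05 downward in any comparison with CTRL. A set of 8 identical clusters, the first of them TC1000001395 and 7 of them in the longer stretch, measured 11.10, 11.74 and 11.65 in i-EVs, 11.02, 11.07 and 10.71 in IL4-EVs, 10.52, 11.26 and 11.25 in MSC-EVs and 11.63, 11.34 and 11.53 in CTRL. The IL4-EVs and MSC-EVs arrays lay below every CTRL array, but the log2 changes of -0.56 and -0.48 did not pass the test (adjusted p = 0.177 and 0.186, limma).

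In many cases neighbouring numbers lay on the same side of CTRL. In 301 pairs of unnamed clusters that follow each other in number and differ in their values, 72.4% had the same sign of change with MSC-EVs, 70.1% with IL4-EVs and 62.5% in the i-EVs comparison. Where a bright cluster with a symbol followed an unnamed one, in 578 pairs, the shares were 53.8%, 53.3% and 55.2%. Over all 2978 unnamed clusters, 59.1% were higher than CTRL with MSC-EVs, 63.7% with IL4-EVs and 53.5% in the i-EVs comparison, which by itself gives some pairs of like sign. The pairs share the arrays, and neighbours may belong to 1 transcript, so these shares are a description. That the numbers follow the genome was checked with 18016 clusters of placed genes on 19 chromosomes, of which at least 97.6% ascended in position within each strand. Whether fewer cells of a type or less RNA per cell lies behind a lower value cannot be told apart in such bulk samples.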

How the data were processed

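RNA of 12 OPC samples (100 ng each, 300000 cells per well) was measured on Clariom D mouse arrays, each sample on its own. The EV groups had received EVs of 2 donor microglia per OPC, and CTRL medium alone. The deposited intensity values were made by the authors with RMA (perfect-match probes, background correction, quantile normalization, summarization) in TAC 4.0, while Affymetrix Expression Console (no version) stands in the submitters' processing notes. They lie on a linear scale from 3.34 to 999968 and were turned to log2 with no pseudocount. A second deposited table of intensity values held the same values. Which genome build underlies the annotation of the array was not stated, and positions are left out.

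Symbols came from the platform annotation (30404 clusters with 1 symbol, 2145 with several, 32986 with none) and neighbouring genes from RefSeq (GRCm38.p6). Names and classes of unnamed clusters came from the study's list of differentially expressed genes. Sequences of the clusters were not used here.

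All 12 arrays entered limma 3.58.1 (R 4.3.3, with data.table in version 1.17.8) with a mean per group, 8 residual and 3.46 prior degrees of freedom. The 6 comparisons were adjusted by Benjamini-Hochberg over 65535 clusters. The procedure was tested on simulated data. Alternatives left out each array, rescaled the arrays, changed the moderation, weights, samples, block, threshold and fold. The members, lists and rules were chosen with earlier results of these data known. Named are the 5 brightest members, up to 4 rises and 4 falls per comparison with CTRL without overlap, up to 3 differences between EV types, 3 members on each side of the threshold, the longest run of DEGs, and the genes beside them; of the mitochondrial clusters some were named after their values were seen. The number of arrays limits the precision. Python 3.11.15 (pandas 2.3.3, numpy 2.4.6) summarized the fits and matplotlib 3.10.9 drew the figures.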

Additional observations from a re-analysis of the deposited data

How the results depend on the processing

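Of 28 alternatives tried, 2 (1 cluster per set of identical values, and i-EVs replicate 2 and MSC-EVs replicate 3 both left out) were chosen after seeing the data. The largest rises, falls and EV differences named by the rule were each refitted under 21 of them in their own comparison, and none was reversed. Calls were lost in 9 to 15 of the 21 for the i-EVs changes and in 14 for each EV difference. With IL4-EVs, TC0500001564 was lost in 12 and each of the 3 chromosome 13 clusters in 9. The other named changes were lost in 0 to 5. The mitochondrial clusters mt-Tv, mt-Th and mt-Tg, the run beside Qk and the identical sets were not refitted in this way. Counts below are unnamed clusters with a mean of at least 6, as DEGs, rises then falls, and p-only counts need an adjusted p under 0.05 without a fold. With i-EVs against CTRL (4 and 11, p-only 11 and 20, median 0.0253), quantile normalization gave 11 and 5, p-only rises 18, median 0.104. Cyclic loess gave 20 and 7, p-only rises 37, median 0.116, and median centring 2 and 6, p-only 4 and 11, median -0.0121. Only clusters with a mean of at least 6 gave 53 and 56, p-only 131 and 161, an intensity trend 1 and 1, p-only 1 and 1, no moderation 1 and 0, p-only 1 and 1, array weights 15 and 17, p-only 37 and 44, and only the groups compared 0 and 0, p-only 0 and 0. Both arrays left out gave 1 fall, p-only 4 and 2, a minimum of 5 gave 8 rises, a fold of 1.2 gave 11 and 20, and a fold of 2 gave 0 and 0. With IL4-EVs (198 and 104, p-only 296 and 208, median 0.131), quantile normalization gave 45 falls, p-only falls 128, median 0.207, and cyclic loess 315 and 41, p-only 458 and 120, median 0.225. Only clusters with a mean of at least 6 gave 308 rises, p-only 623 and 356, no moderation 56 and 59, p-only 104 and 116, array weights 327 rises, p-only 633 and 339, only the groups compared 322 rises, p-only 662 and 338, and both arrays left out 319 rises, p-only rises 572. A fold of 1.2 gave 207 falls, a fold of 2 gave 11 and 8, and 1 cluster per set gave a median of 0.0814. With MSC-EVs (824 and 272, median 0.127), a fold of 2 gave 405 and 53, a fold of 1.2 gave 420 falls, and cyclic loess a median of 0.235. For MSC-EVs against i-EVs (188 and 27), only clusters with a mean of at least 6 gave 447 and 56, no moderation 1 and 0, array weights 54 and 7, only the groups compared 0 and 0, both arrays left out 3 and 0, a minimum of 5 gave 299 rises, a fold of 1.2 gave 49 falls, and a fold of 2 gave 53 and 3. Testing fewer clusters, another fold, another minimum mean and 1 cluster per set moved the results by their construction. For the other alternatives the cause was not tested.

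Leaving out 1 array at a time gave 0 to 52 rises and 0 to 89 falls with i-EVs (p-only 0 to 64 and 0 to 135, median 0.00358 to 0.0508), 56 to 299 and 57 to 122 with IL4-EVs (p-only 76 to 528 and 90 to 267, median 0.119 to 0.15), and 623 to 880 and 218 to 289 with MSC-EVs (p-only 695 to 997 and 298 to 447, median 0.111 to 0.15). MSC-EVs against i-EVs gave 1 to 415 and 0 to 61 (median 0.088 to 0.128), MSC-EVs against IL4-EVs 0 to 62 and 0 to 3 (median 0.0154 to 0.0477), and IL4-EVs against i-EVs a median of 0.0802 to 0.114.

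Whether samples of the same replicate number share an origin cannot be told from the labels. Deviations of the 18 same-numbered pairs correlated at -0.103 to 0.141 (median 0.0334), and those of 36 other pairs at -0.134 to 0.106 (median -0.0155). Among the same-numbered pairs those of replicate 1 were all positive, from 0.0723 to 0.141. With the number as a block, i-EVs gave 11 rises and 46 falls (p-only 24 and 82) and MSC-EVs against i-EVs 362 rises.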
